A study of Mus musculus with 135 samples.

Results

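Genome activation was followed in 7 single mouse embryos of the genotype labelled Obox--, 3 at the early and 4 at the late 2-cell stage, by Smart-seq2 sequencing of RNA from individual embryos. These 7 are all the libraries of that genotype in the single-embryo table of 13 libraries, and belong to a series of 135 samples, of which 107 are RNA samples. The members were chosen by genotype and stage alone, and the comparison was run across all genes. The groups set beside them are 6 Obox+- single embryos of the same table (3 early, 3 late) and, from a separately normalized table, wild-type embryos (2 early, 3 late) and embryos labelled mzKO (2 early, 3 late). None of these groups received a treatment. The labels do not give the mothers' genotype of the single embryos, nor the allele or the litter of any embryo. The p-values thus measure only the spread between these libraries.

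Obox genes encode homeobox transcription factors in a large cluster of near-identical copies. Some are stored as messenger RNA in the oocyte and others are switched on after fertilization. In the mouse, the zygotic genome becomes active mainly during the 2-cell stage, when a maternal set of transcripts is cleared and many embryonic transcripts appear.

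The Obox-- embryos still held maternal Obox transcripts at the early 2-cell stage and lost them by the late stage. Obox1 was at 102, 104 and 95.9 FPKM (fragments scaled to transcript length and to the library's mapped fragments) in early embryos 1 to 3. It was at 2.15, 1.80, 1.90 and 0.524 in late embryos 1 to 4. Obox5 was at 497, 272 and 273 FPKM early and at 1.27, 3.23, 5.86 and 0.958 late. Obox2 ranged from 50.2 to 56.7 FPKM early and from 1.20 to 2.24 late, and Obox7 from 12.3 to 15.7 early and from 0.0853 to 0.593 late. All 4 fell, with no overlap between stages (log2 change of -5.34 for Obox1, -4.38 for Obox2, -6.63 for Obox5 and -3.54 for Obox7; limma, the highest adjusted p being 5.0e-09, for Obox7). They fell in Obox+- embryos too, by 5.04, 4.45, 5.71 and 2.84 on the log2 scale. In the other table, early mzKO embryos held 0.0408 to 0.143 FPKM of Obox1 and 0.0201 to 0.445 of Obox5. Early wild-type embryos there held 548 to 835 FPKM of Obox1 and 1170 to 1339 of Obox5.

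The absence of Obox RNA in the Obox-- embryos held for part of the family only. Obox3 and Obox4 were listed at 0 in all 7 Obox-- embryos, whereas Obox3 ranged from 5.75 to 10.9 FPKM in early and from 12.6 to 27.2 in late Obox+- embryos. Of the 66 Obox names in the table, 34 reached 1 FPKM in at least 1 Obox+- embryo, and 25 of these 34 were listed at 0 in every Obox-- embryo. Obox6 and Obox8, in contrast, were high in late Obox-- embryos. Obox6 was at 14.0, 5.92 and 7.93 FPKM early and at 221, 180, 170 and 189 late, against 179 to 258 in late Obox+- embryos. Its log2 change was 4.29 ± 0.30 (SE; limma, adjusted p = 1.8e-09). Obox8 was at 83.0, 29.8 and 19.7 early and at 109, 104, 99.6 and 108 late, a log2 change of 1.49 ± 0.36 (adjusted p = 0.0016). In the other table, late mzKO embryos held 59.3 to 87.4 FPKM of Obox6 and 5.71 to 11.7 of Obox8. Late wild-type embryos there held 219 to 471 FPKM of Obox6 and 67.7 to 140 of Obox8. The Obox-- embryos are described by their label here, and not as lacking all zygotic Obox. Reads may be split between Obox copies, so values of single copies are uncertain.

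**Figure D1:**
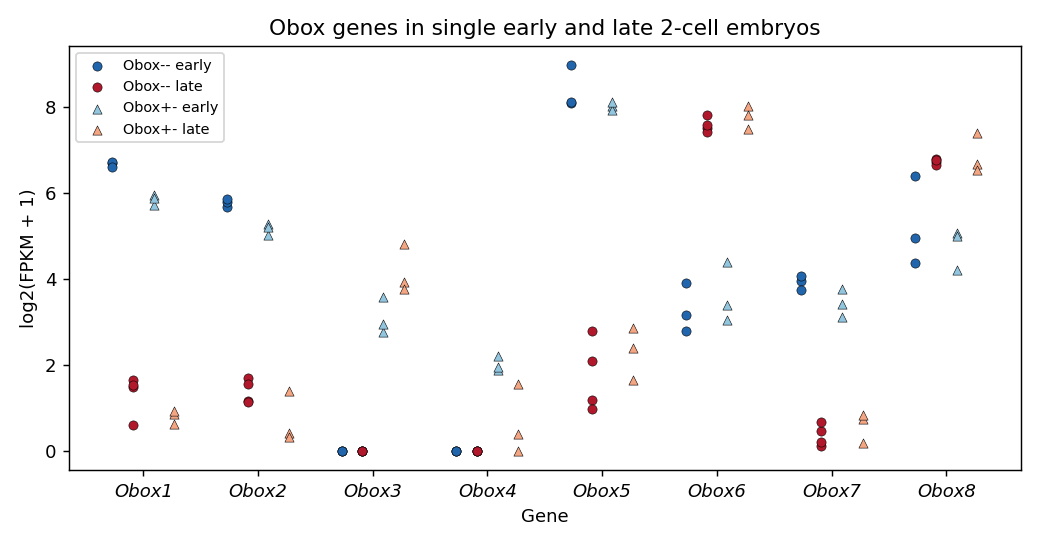
Level of Obox1 to Obox8 in each single embryo, as log2(FPKM + 1); circles are the 3 early and 4 late Obox-- embryos, triangles the 3 early and 3 late Obox+- embryos. Obox3 and Obox4 sit at 0 in every Obox-- embryo, Obox1, Obox2, Obox5 and Obox7 are high early and low late in both genotypes, and Obox6 and Obox8 are high late in both.

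The libraries of a stage were alike apart from 1 early embryo. FPKM sums ran from 171697 to 245998 in early and from 177303 to 186687 in late Obox-- embryos, and 8565 to 9658 genes early and 8632 to 8993 late reached 1 FPKM. Early embryo 1 holds both early maxima. Its genes lay at a median of 0.46 above the mean of the other early embryos on the log2 scale, while early embryos 2 and 3 lay at -0.19 and -0.25. The ribosomal RNA precursor Rn45s took 3.24% to 4.66% of the FPKM sum early and 20.7% to 24.2% late, and 5.99% to 7.44% and 20.1% to 24.4% in Obox+- embryos. FPKM are shares, so a larger share for Rn45s lowers the reading of every other gene, and its part in single results was tested only by leaving Rn45s out. Oocyte markers were present (all 7 above 1 FPKM on average at both stages) and 2-cell markers too (7 of 7). Markers of other cells were near 0: their summed level was at most 11.2 FPKM for 10 cumulus and granulosa markers, 1.75 for 7 sperm markers and 1.32 for 7 fibroblast markers, with 4, 4 and 5 of them listed at 0 in all early embryos and 6, 6 and 4 in all late embryos.

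From the early to the late 2-cell stage, about as many genes rose as fell in Obox-- embryos. Of 11718 genes tested, 3027 rose (25.8%) and 2904 fell (24.8%), calling a gene at a limma adjusted p under 0.05 and a log2 change of at least 1 on the log2(FPKM + 1) scale, a scale that compresses the differences of weakly expressed genes. The largest rise was that of Slc39a4, a zinc importer of the plasma membrane. It was at 1.64, 0.985 and 0.155 FPKM early and at 174, 132, 205 and 118 late, a log2 change of 6.40 ± 0.31 (SE; limma, adjusted p = 2.2e-11). With Rn45s left out and the libraries rescaled, 3720 genes rose and 2292 fell. Without early embryo 1 the counts were 3328 and 2540. All embryos compared are at the 2-cell stage, and RNA of whole embryos does not show which cell a change lies in.

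The next largest rises, like the largest falls below, are of genes chosen for having no overlap between early and late embryos. Timd2, which encodes a cell-surface ferritin receptor, was at 2.17, 0.884 and 3.30 FPKM early and at 202, 127, 206 and 160 late. Tufm, the mitochondrial translation elongation factor, was at 0.544, 0.179 and 0 early and at 77.3, 61.7, 66.5 and 72.1 late. Exosc5, a subunit of the RNA exosome, was at 0.847, 0.810 and 0.317 early and at 80.3, 94.2, 106 and 69.4 late. That every late embryo lay above every early one in each case follows from this choice. Hspbp1, a cochaperone of Hsp70, rose by 5.71, and Ece2, an endothelin-converting enzyme, by 5.53. Ipo7, a nuclear import receptor that carries ribosomal proteins, was at 5.08, 2.71 and 3.98 early and at 199, 217, 221 and 194 late, so its late embryos differed by little. Tdh, threonine dehydrogenase, rose by 5.22 ± 0.51 with a wider spread, at 79.2, 17.5, 48.6 and 47.1 late. The remaining genes of the 15 largest rises, with predicted and Obox genes set aside, were Itgb5 (integrin beta 5), Psap (the saposin precursor), Hsd17b14, Pprc1, Mfsd5, Tdpoz4 and Mybbp1a, with log2 changes of 4.82 to 5.14. Among predicted and clone-named genes Gm11517 (4.68), AU018091 (4.14), AI661453 (3.70), 2210016L21Rik (3.68) and Gm2027 (3.63) rose most.

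The largest falls included genes known from the oocyte. Oosp3, an oocyte-secreted protein gene, was at 1366, 1553 and 1464 FPKM early and at 0.934, 4.03, 2.84 and 1.60 late, a log2 change of -8.86 ± 0.40 (SE; limma, adjusted p = 1.3e-11). Mphosph6, an exosome-associated protein, was at 1955, 1783 and 1594 early and at 5.37, 3.88, 3.14 and 5.18 late. The oocyte maturation genes Omt2b and Omt2a fell by 8.26 and 7.89. Cks2, a regulatory partner of cyclin-dependent kinases, fell from between 1580 and 2020 FPKM to between 2.52 and 17.7. Dazl, a germ-cell RNA-binding protein, was at 220, 303 and 114 early and at 1.42, 0.367, 0.389 and 1.52 late. Early and late embryos did not overlap for any of these genes, because the genes were chosen for that. Snrpe, Rps27l, Med30, Adh5, Ift43, Hypk, Plac8, Tesc and Gng5 complete the 15 largest falls of annotated genes other than Obox genes, at log2 changes of -6.62 to -8.16. The predicted genes BB287469 (-6.81), Gm8300 (-6.75), E330021D16Rik (-6.75), 2700029M09Rik (-6.62) and Gm4027 (-6.58) fell most among their kind. Of the 15 annotated genes, Oosp3, Mphosph6, Dazl, Med30, Ift43, Plac8 and Gng5 also fell in the wild-type embryos of the other table. Omt2b, Omt2a, Cks2, Snrpe, Rps27l, Adh5, Hypk and Tesc were not called there. Late wild-type embryos held means of 2085, 1338 and 1471 FPKM of Omt2b, Omt2a and Cks2.

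**Figure D2:**
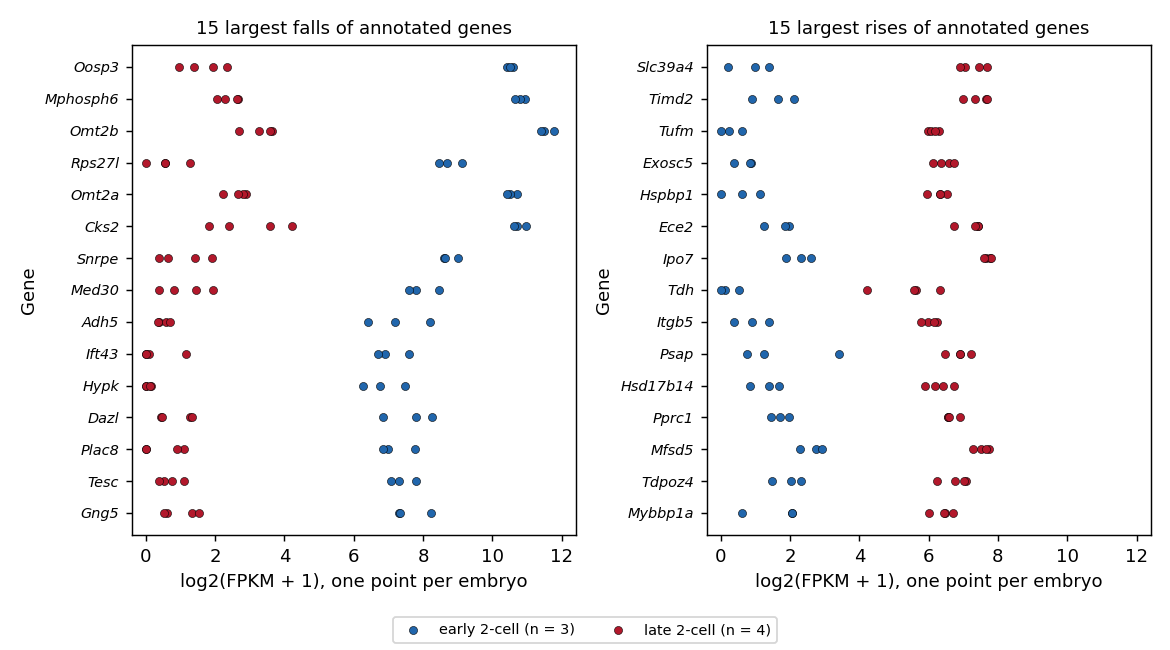
Level of the annotated genes other than Obox genes with the 15 largest falls (left) and rises (right) in Obox-- embryos, as log2(FPKM + 1), with 1 point for each of the 3 early and 4 late embryos. By the rule of choice, no gene shown has an early embryo within the range of the late ones. The late values of Tdh and the early values of Psap are the most scattered on the right.

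A few genes went from nearly nothing to abundant in every embryo, and their promoters are shown for that reason. Under 1 FPKM in all 3 early and at 20 FPKM or more in all 4 late embryos were 6 genes: Exosc5, Tufm, Igf2r (the mannose 6-phosphate and Igf2 receptor), Wdr12 (a ribosome biogenesis factor), Tspan4 and Larp1 (an RNA-binding regulator of ribosomal protein mRNAs). All 6 rose in Obox+- and in wild-type embryos as well, and 1 of the 6 rose in mzKO embryos. Of all genes, 28.0% rose in Obox+-, 34.2% in wild-type and 18.0% in mzKO embryos, so the mzKO count is near the share of all genes. The promoters of 3 of them (RefSeq, GRCm38.p6, 250 bases before to 50 after the annotated start, first entry for the gene, 5′ to 3′) follow, with capitals for the letters CCAAT, bound by NF-Y, and for the letters GGGCGG, bound by Sp1 factors, each searched on both strands; no matches overlap in the 3 stretches.

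Exosc5 (chr7:25658903-25659202, plus strand): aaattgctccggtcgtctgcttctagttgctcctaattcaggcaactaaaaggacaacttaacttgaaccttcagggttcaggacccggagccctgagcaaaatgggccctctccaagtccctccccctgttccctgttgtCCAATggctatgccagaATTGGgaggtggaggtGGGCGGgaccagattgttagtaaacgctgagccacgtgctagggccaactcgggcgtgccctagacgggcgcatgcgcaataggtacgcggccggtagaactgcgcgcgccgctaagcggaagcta
Tufm (chr7:126487105-126487404, plus strand): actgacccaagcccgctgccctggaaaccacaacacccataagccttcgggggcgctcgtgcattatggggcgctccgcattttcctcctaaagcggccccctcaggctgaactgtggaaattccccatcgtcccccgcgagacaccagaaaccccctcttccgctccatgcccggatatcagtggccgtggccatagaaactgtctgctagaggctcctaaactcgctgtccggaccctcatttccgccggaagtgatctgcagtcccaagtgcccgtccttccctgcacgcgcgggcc
Wdr12 (chr1:60098451-60098750, minus strand): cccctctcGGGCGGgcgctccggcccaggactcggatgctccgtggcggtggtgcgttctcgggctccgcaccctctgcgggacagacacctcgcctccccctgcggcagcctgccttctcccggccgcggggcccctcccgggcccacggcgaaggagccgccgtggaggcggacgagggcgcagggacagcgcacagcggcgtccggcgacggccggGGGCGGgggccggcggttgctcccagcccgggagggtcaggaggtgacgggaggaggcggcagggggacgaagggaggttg

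The Exosc5 promoter holds CCAAT letters 2 times and GGGCGG letters 1 time, Wdr12 holds GGGCGG letters 2 times, and Tufm holds neither. Of the promoters found for genes that rose, 69.0% held GGGCGG on either strand (1576 of 2284), against 58.5% for genes that fell (1265 of 2163), 63.2% for all tested genes and 35.9% for all 27025 promoters. CCAAT was held by 39.1% of the promoters of risen genes, 40.9% of fallen genes, 39.9% of tested genes and 37.9% of all promoters. TAATCC on either strand, the core letters bound by Otx-type homeodomains, was held by 5.34% of risen, 6.66% of fallen, 5.84% of tested and 7.16% of all promoters. A match of letters is a description, not a binding site.

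Nucleolar and ribosome biogenesis genes were the list with the highest median change. Of 67 members tested, 39 rose (58.2%, against 25.8% of all genes) and 5 fell, with a median log2 change of 1.52 against 0.05 for all tested genes. Mybbp1a, a nucleolar regulator of RNA polymerase I, rose by 4.82 ± 0.31, from 3.17, 0.530 and 3.16 FPKM to 87.7, 85.5, 102 and 63.0. Wdr12 of the PeBoW complex rose from 0.911, 0.706 and 0.494 to 30.3, 40.5, 33.1 and 25.2, and its partners Bop1 (3.46) and Pes1 (3.06) rose with it. Rrp12, which exports pre-ribosomal subunits, rose by 4.11. In all of these the late embryos lay above the early ones. That follows largely from the choice of members with large rises, Bop1 and Pes1 after their values were seen. The 5 that fell were Nhp2l1 (-2.76), Nip7 (-2.57), Imp3 (-2.50), Brix1 (-1.95) and Dkc1 (-1.29).

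RNA polymerase subunits, tRNA synthetases and initiation factors also gave more rises than falls. RNA polymerase subunits gave 16 rises (50%, against 25.8% of all genes) and 8 falls (25.0%, against 24.8%) among 32 tested. The rises included Polr3e (4.01), Polr1e (3.70) and Polr2a (3.51), the catalytic subunit of RNA polymerase II, which was at 6.57, 1.97 and 2.15 FPKM early and at 57.3, 39.5, 49.3 and 40.4 late. The falls included Polr2c (-5.17), Polr2j (-4.93) and Polr2g (-4.03). Of 36 aminoacyl-tRNA synthetases and partners, which charge tRNAs with amino acids, 17 rose (47.2%) and 2 fell (5.56%). Yars2 rose by 3.61 and Lars2 by 3.48, the latter from 98.2, 133 and 127 to 1438, 1220, 1228 and 1440 FPKM. Lars2 alone made up most of the summed level of this list, which was 1595 to 1817 FPKM in late Obox-- embryos. Translation initiation factors gave 19 rises (41.3%), among them Eif3e (4.01) and Eif3m (3.71), and 7 falls (15.2%), among them Eif1ax (-3.83), of 46 tested. Splicing factors were nearer the shares of all genes, with 21 rises (32.8%) led by Prpf8 (3.58) and 19 falls (29.7%) led by Snrpe (-7.66) of 64 tested.

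Early nuclear receptors and lineage factors rose more often than they fell. Of 24 nuclear receptors and lineage factors tested, 15 rose (62.5%, against 25.8% of all genes) and 2 fell (8.33%, against 24.8%), at a median log2 change of 1.28. Gata1, a zinc-finger factor known from blood cells, rose by 4.24 ± 0.57, from 3.31, 0.831 and 0.709 FPKM to 70.3, 21.0, 46.0 and 54.3. Rarg, a retinoic acid receptor, rose by 3.20. Nr5a2, an orphan nuclear receptor, rose by 2.68, from a mean of 4.77 to one of 35.2 FPKM. Hand1 was listed at 0 in all early embryos and at 14.6, 1.50, 6.50 and 9.31 FPKM late. Elf3 (-2.25) and Gata3 (-2.20) were the 2 that fell. In Obox+- embryos 20 of the 24 rose and 2 fell, at a median log2 change of 2.25. There 28.0% of all genes rose and 21.3% fell. The difference in change between the genotypes was called for 1 of the 24. Among 22 pluripotency genes 7 rose in Obox-- embryos (31.8%, near the share of all genes) and 2 fell (9.09%). Fbxo15 was at 42.0, 30.0 and 43.6 FPKM early and at 832, 862, 1021 and 706 late (4.44 ± 0.22), and Fgf4 (3.59) and Tet1 (3.19), a DNA demethylase, rose too. The 2 falls were of Tcl1 (-4.67) and Dppa3 (-4.61), both also oocyte transcripts. Trophectoderm genes lay near the shares of all genes, with 6 rises (26.1%) and 7 falls (30.4%) among 23 tested.

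Chromatin, autophagy and one-carbon genes rose more often than they fell. Of 44 DNA methylation and chromatin genes, 18 rose (40.9%, against 25.8% of all genes) and 8 fell (18.2%, against 24.8%). The histone acetyltransferase Ep300 rose from 5.46, 2.72 and 2.64 FPKM to 57.0, 63.7, 53.4 and 55.2 (3.71 ± 0.25), and the corepressor Trim28 by 3.33, while Hdac2 (-2.89) and Ezh2 (-2.00) fell. Of 29 autophagy genes, 17 rose (58.6%) and 3 fell (10.3%), with Atg9a (3.93), Ulk1 (3.58) and Map1lc3a (3.44) leading. Of 24 genes of serine synthesis and one-carbon metabolism, 12 rose (50%) and 3 fell (12.5%). Psat1, a serine synthesis enzyme, rose by 3.77, and Mat2a, which makes S-adenosylmethionine, rose by 3.33 while its regulatory subunit Mat2b fell by 2.53.

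Oocyte and maternal genes fell more often than they rose. Of 98 oocyte and maternal genes tested, 56 fell (57.1%, against 24.8% of all genes) and 8 rose, at a median log2 change of -1.66. Besides Oosp3 and the Omt2 genes, the Tcl1b genes fell together: Tcl1b1 had means of 1938 FPKM early and 25.1 late. Btg4, an adaptor for maternal mRNA decay, went from a mean of 2205 FPKM to 63.9. Zp2 (0.50), which encodes a zona pellucida protein, was not called. Gpr3, the receptor that holds oocytes in meiotic arrest, rose by 2.58, from 27.6, 12.8 and 12.0 FPKM to 88.7, 99.2, 95.3 and 130. Meiotic and mitotic cell cycle genes lay near the shares of all genes: 17 of 62 fell (27.4%), led by Birc5 (-5.24) and Gmnn (-4.78), and 12 rose (19.4%, against 25.8%), led by Cdk4 (3.10) and Mcm7 (2.92).

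Genes that are switched on briefly around the 2-cell stage fell more often than they rose in Obox-- embryos. Of 47 tested, 25 fell (53.2%, against 24.8% of all genes), 5 rose (10.6%, against 25.8%) and 17 were not called (median -1.53). BB287469 was at 193, 230 and 279 FPKM early and at 1.33, 1.68, 0.348 and 1.17 late. Zscan4d, of a family tied to telomere elongation, fell by 3.05, from a mean of 45.2 to one of 4.53 FPKM, and Zscan4a, Zscan4c and Zscan4f fell by 3.52, 3.14 and 3.50. Zfp352 fell by 1.36. Tdpoz4 went the other way, from 4.03, 1.80 and 3.08 FPKM to 133, 75.2, 107 and 130 (4.83 ± 0.30), as did its relative Tdpoz2 (3.30) and the histone demethylase Kdm5b (2.94). Zscan4, Tdpoz and Usp17l genes have near-identical copies, so single values are uncertain. In Obox+- embryos 31 of the 47 fell and 4 rose, where 21.3% of all genes fell and 28.0% rose.

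Genes of cytosolic ribosomes and respiration fell more often than they rose in these libraries. Of 80 cytosolic ribosomal protein genes 45 fell (56.2%, against 24.8% of all genes) and 13 rose (16.2%, against 25.8%), at a median of -1.33. Rps29 was at 38.0, 15.7 and 16.1 FPKM early and at 0, 0.156, 0.412 and 0 late, whereas Rps26 was at 47.0, 40.2 and 38.6 early and at 561, 411, 496 and 555 late. Of 75 oxidative phosphorylation genes 38 fell (50.7%), led by Cox6c (-6.10), and 15 rose (20.0%), led by Ndufs8 (3.69). Of 41 proteasome genes 14 fell (34.1%) and 8 rose (19.5%). Mitochondrial ribosomal protein genes lay near the shares of all genes, with 20 of 72 falling and 20 rising (27.8% each). These lists were thus divided within themselves, and members such as Rps27l, at 559, 409 and 350 FPKM early, were at 1.42, 0.479, 0 and 0.472 late.

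The other tables put these lists elsewhere. In Obox+- embryos the medians were -0.84 for cytosolic ribosomal proteins and -0.80 for oxidative phosphorylation, but in wild-type embryos they were 3.64 and 2.39 and in mzKO embryos 2.61 and 1.39, with 0 members called down in either (limma; the median of all genes was 0.72 in wild type and 0.46 in mzKO). Over all genes 34.2% rose and 3.16% fell in wild type (4789 and 442), and 18.0% rose and 1.82% fell in mzKO (2523 and 254). With median-of-ratios scaling these splits became 2015 against 1732 in wild type and 947 against 946 in mzKO. Without wild-type early replicate 2 they were 2485 against 1003, without early replicate 1 6175 against 162, without mzKO early replicate 2 756 against 236 and without mzKO early replicate 1 2022 against 62. Of the 2904 genes that fell in Obox-- embryos, 2165 (74.6%) also fell in Obox+- embryos, which is 86.8% of the Obox+- falls, whereas 376 (12.9%) fell and 445 (15.3%) rose in wild type, and 208 (7.16%) fell and 303 (10.4%) rose in mzKO. Of the 3027 that rose, 2567 (84.8%) rose in Obox+-, 2238 (73.9%) in wild-type and 1076 (35.5%) in mzKO embryos. In Obox-- embryos, 24 genes went from at least 20 FPKM in every early embryo to under 1 in every late one, among them Hypk, Cox6c, Cox7a2, Hspe1 and Ndufa1. All 24 fell in Obox+- embryos (where 21.3% of all genes fell), 9 fell in wild type, among them Gm8300 (-3.97), and 3 fell in mzKO. In wild-type late embryos 19 of the 24 had a mean of at least 20 FPKM. The median change in Obox-- embryos was -0.64 for 158 protein-coding genes spanning up to 1500 bases of the genome. It was -0.24 for 249 genes of 1500 to 2500 bases, -0.11 up to 5000, 0.10 up to 10000 and 0.24 up to 20000. It was 0.25 for 2286 genes of 20000 to 40000 bases, 0.23 up to 100000 and -0.17 for 1280 genes over 100000. The median thus rose with span up to 40000 bases and not beyond. The same bins, in order, gave -0.59, -0.19, -0.03, 0.33, 0.37, 0.38, 0.32 and -0.21 in Obox+- embryos. They gave 0.89, 1.30, 1.40, 1.26, 1.12, 1.07, 0.87 and 0.38 in wild type. Genomic span was available and transcript length was not, and the part of length in these falls was not tested. Genotype, table and library preparation cannot be told apart between the single-embryo and the wild-type table, so no test was made across them.

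**Figure D3:**
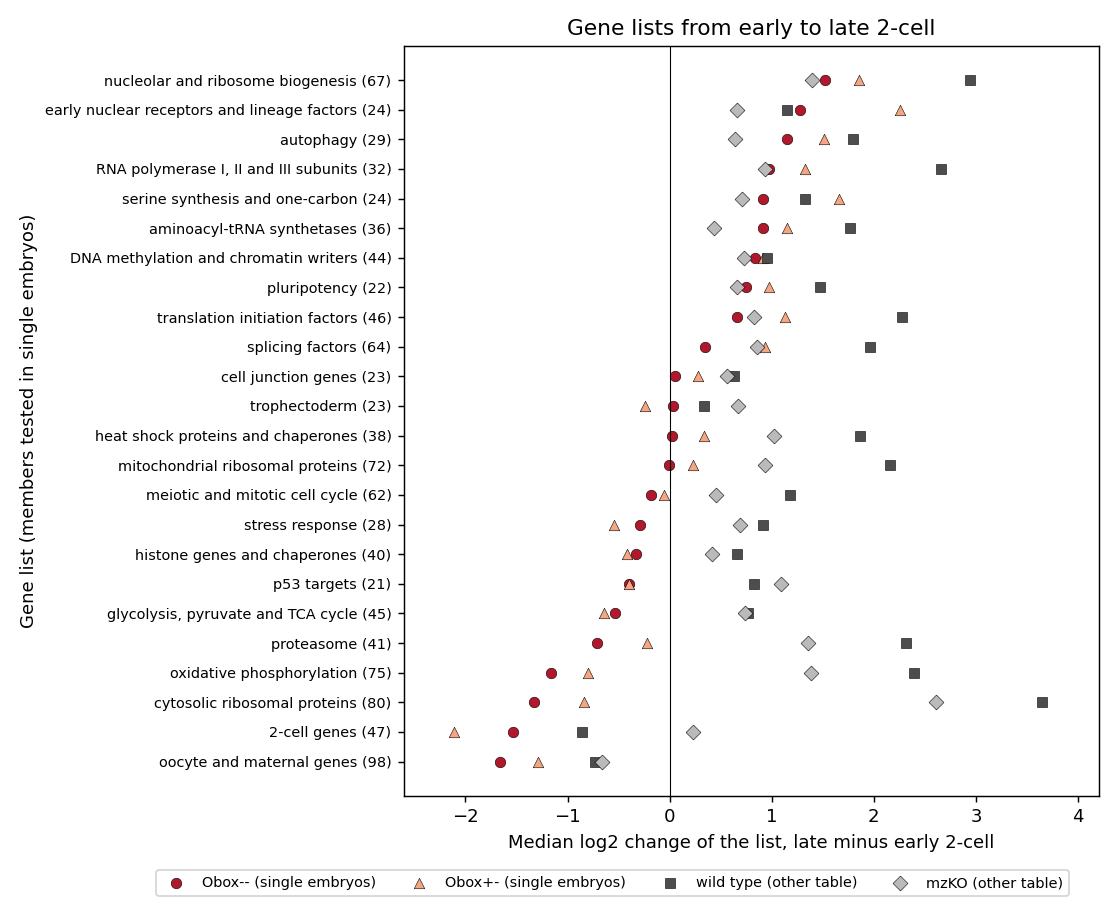
Median log2 change (late minus early 2-cell) of each gene list with at least 20 members tested, for Obox-- and Obox+- single embryos and, from the other table, wild-type and mzKO embryos; the number of members tested in single embryos is in brackets. Nucleolar genes have the highest median in Obox-- embryos (1.52) and oocyte genes the lowest (-1.66), and cytosolic ribosomal proteins lie at -1.33 in Obox-- but at 3.64 in wild-type embryos.

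The change from early to late differed between Obox-- and Obox+- embryos for few genes. Of the 11718 tested, 11 (0.0939%) had a difference called by limma, 4 (0.0341%) with a higher and 7 (0.0597%) with a lower change in Obox-- embryos, and 1096 (9.35%) had an unadjusted p under 0.05. The median difference over all genes was -0.15, and 17 of the 24 lists with at least 20 members tested had a lower one, from -0.49 for the proteasome, while 2-cell genes had 0.36. In Obox+- embryos 28.0% of genes rose and 21.3% fell. Of the 11, 7 reached 1 FPKM in 2 or more libraries in 1 genotype only. They thus passed the filter on low values through the genotype in which they are high and had to differ in level. Their differences are a description, and their number supports nothing. The 7 include 4 Obox copies that the Obox-- embryos list at 0 throughout: OboxA5, OboxA7, OboxA8 and OboxA10. OboxA7 was at 7.57 to 18.0 FPKM in early and 64.9 to 95.2 in late Obox+- embryos.

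Gja1 and Sox21, also of the 7, rose in Obox+- but were not called in Obox-- embryos. Gja1, the gap junction protein connexin 43, was at 0.447, 0.182 and 0.0902 FPKM in early and 1.24, 0.285, 0.531 and 0.309 in late Obox-- embryos, against 0.633, 0.305 and 0.692 early and 12.1, 6.48 and 16.2 late in Obox+-. The difference in log2 change was -2.62 ± 0.45 (SE). In the other table Gja1 was at 4.82 to 7.72 FPKM in wild-type and at 0.231 to 0.540 in mzKO late embryos. Sox21, a transcription factor of the Sox family that is known to affect fate in 4-cell mouse embryos, was at 0.343, 0, 0.427 and 0.0539 in late Obox-- and at 4.39, 3.16 and 8.77 in late Obox+- embryos, and listed at 0 in all early ones. Its difference was -2.34 ± 0.41 (SE). For both genes every late Obox+- embryo lay above every late Obox-- embryo. As both passed the filter through Obox+- embryos only, this is a description and supports nothing. Their promoters, from the same RefSeq table, are shown because these genes rose in Obox+- embryos and were not called in Obox-- embryos.

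Gja1 (chr10:56377050-56377349, plus strand): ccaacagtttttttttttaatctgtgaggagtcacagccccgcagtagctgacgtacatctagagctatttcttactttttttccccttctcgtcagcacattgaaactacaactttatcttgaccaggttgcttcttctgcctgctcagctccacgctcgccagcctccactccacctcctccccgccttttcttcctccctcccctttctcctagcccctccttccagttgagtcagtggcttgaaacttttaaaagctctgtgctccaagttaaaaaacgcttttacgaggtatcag
Sox21 (chr14:118236981-118237280, minus strand): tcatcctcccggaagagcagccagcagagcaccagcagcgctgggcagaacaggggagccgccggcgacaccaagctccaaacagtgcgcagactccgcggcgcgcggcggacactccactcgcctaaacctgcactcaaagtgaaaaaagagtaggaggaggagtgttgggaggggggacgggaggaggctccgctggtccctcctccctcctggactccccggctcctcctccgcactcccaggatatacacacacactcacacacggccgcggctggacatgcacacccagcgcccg

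Neither stretch holds any of the 3 motifs searched, on either strand, so neither has capitals.

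The other 4 genes reached 1 FPKM in 2 or more libraries of both genotypes, and fell in Obox+- embryos and did not fall in Obox-- embryos. Gm4567 was at 236, 359 and 354 FPKM early and at 48.9, 93.6 and 28.0 late in Obox+-, but at 53.5, 43.3 and 119 early and 105, 150, 66.5 and 172 late in Obox--, a difference of 3.41 ± 0.58 (SE; limma, adjusted p = 0.022). Gm6902 fell by 1.79 in Obox+- and rose by 1.28 in Obox-- embryos, a difference of 3.08. For Gm12789 (2.92) and Cldn6 (2.69), a tight junction claudin, the late Obox-- values of 12.1 to 25.6 and 11.9 to 23.3 FPKM stood against 4.28 to 13.6 and 0.919 to 2.44 in Obox+-. Wild-type embryos gave changes of -2.18 for Gm4567 and -2.17 for Gm6902, and mzKO embryos -0.04 and 0.22, but Cldn6 rose in both (2.63 and 4.10). Add3, an adducin of the membrane skeleton and the last of the 7, was named after its values were seen. It was at 4.41, 4.65 and 4.69 FPKM in early Obox-- embryos and at 0.103 to 0.180 in early Obox+- embryos, and at most 0.0492 late in Obox-- and 0.0758 late in Obox+- embryos. It fell by 2.42 ± 0.21 in Obox-- embryos. Early mzKO embryos held 2.61 to 3.77 FPKM of Add3 and early wild-type embryos 0.0926 to 1.75.

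**Figure D4:**
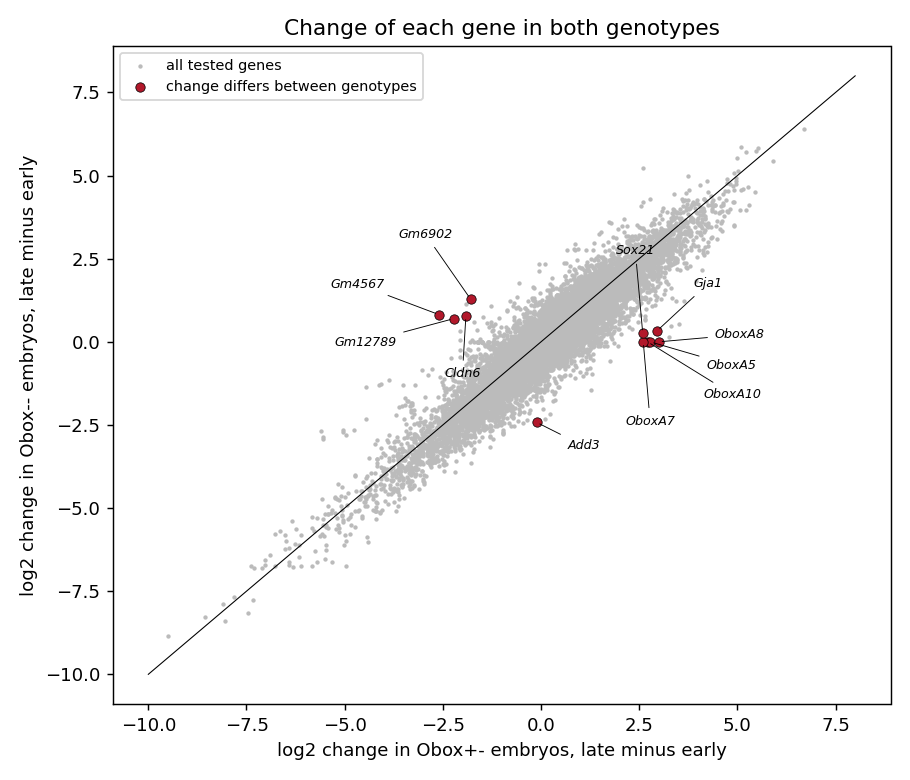
Log2 change from early to late 2-cell in Obox+- (horizontal) and Obox-- embryos (vertical) for all 11718 tested genes, with the line of equal change; red points are the 11 genes whose change differed. Gja1, Sox21 and 4 Obox copies lie near 0 in Obox-- and between 2.59 and 3.00 in Obox+- embryos, and Gm4567, Gm6902, Gm12789 and Cldn6 lie below 0 in Obox+- only.

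The count of 11 depended on single libraries. It ran from 2 to 31 with 1 embryo left out, being 2 without Obox-- early embryo 1 or 2, 31, 6 and 7 without Obox-- late embryo 1, 2 or 4, 5 without Obox+- early embryo 2 or 3, and 4, 27 and 21 without Obox+- late embryo 1, 2 or 3. With a pseudocount of 0.1 limma called 0 genes, with 987 at an unadjusted p under 0.05, and with median-of-ratios scaling 25 (15 with a higher and 10 with a lower change in Obox--). Of the 20 alternatives tried, OboxA10 was called in 19, Gja1 in 10, Cldn6 and Gm4567 in 9 and, of 19 in which it was tested, Sox21 in 7 and Add3 in 18.

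Embryos of the same stage resembled each other far more than those of the other stage. Pearson correlations of log2(FPKM + 1) over the tested genes, given as a description, were 0.951 to 0.954 between early and 0.914 to 0.937 between late Obox-- embryos, and 0.466 to 0.547 between early and late ones. The median gene had an SD of 0.38 between early and 0.36 between late Obox-- embryos on the log2 scale, against 0.26 and 0.33 in Obox+- embryos. Of 1706 genes with a mean of at least 20 FPKM in late Obox-- embryos, 29 (1.70%) had an SD over 1, against 13 of 1681 (0.773%) in early ones and 40 of 1572 (2.54%) in late Obox+- embryos.

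The genes that varied most between late Obox-- embryos were largely a single run of neighbours. Of the 8 with the largest SD, 7 (Gm21293, Gm6763, Gm8764, Gm21304, Gm21312, Gm20765 and Gm4340) are consecutive in the RefSeq order and had like values, so that reads may be shared between copies. Their median was 1.66, 42.4, 17.2 and 73.4 FPKM in late embryos 1 to 4 and 101, 129 and 219 in early embryos. Late embryo 1 was the lowest. Late Obox+- embryos were divided in the same way, at 2.05, 67.7 and 2.09. The eighth gene, Tex101, a germ-cell surface protein, was at 99.1, 0.374, 0.203 and 11.1 FPKM late.

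Genes with known roles varied as well. Spic, an Ets family transcription factor, was at 4.12, 1.97 and 4.30 FPKM in early and at 150, 69.1, 33.5 and 21.7 in late Obox-- embryos, so late embryo 1 was highest. It rose by 3.64 ± 0.46 (limma, adjusted p = 2.8e-06). Obox+- embryos held 9.04 to 18.3 FPKM of Spic early and 296 to 424 late, above every Obox-- embryo of the same stage. The log2 change there was 4.60, and the difference in change was not called (-0.96, limma adjusted p = 0.71). F11r, a tight junction adhesion molecule, was at 86.2, 7.53, 52.0 and 18.8 late. Early embryos differed most in Hist1h4d (53.1, 63.6 and 9.26 FPKM), Gm11758, the metallothionein Mt4, Cdk2ap1, Crabp2, Obox8, Lamtor2 and 1190005I06Rik, and early embryo 1 was the highest of the 3 for Mt4, Cdk2ap1, Crabp2, Obox8, Lamtor2 and 1190005I06Rik.

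Sex-linked transcripts divided the late embryos. Xist, the RNA that coats the inactive X chromosome, was at 6.52 and 5.45 FPKM in late embryos 1 and 4 and listed at 0 in 2 and 3. The Y-linked genes Eif2s3y, Ddx3y, Kdm5d, Uty, Usp9y and Zfy1 were above 0 in embryos 2 and 3 (Eif2s3y at 1.36 and 1.44) and listed at 0 in 1 and 4. Zfy2 and Sry were listed at 0 in all 4. In early embryos Xist was at most 0.144 FPKM.

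**Figure D5:**
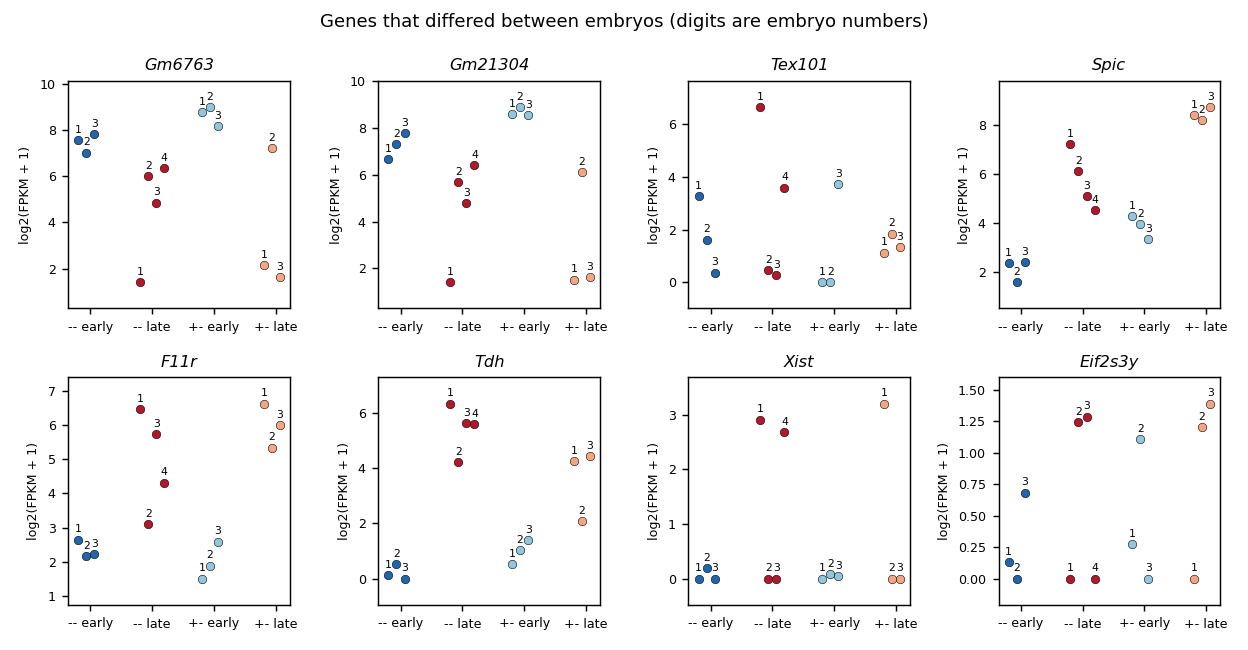
Level of 8 genes in each single embryo, as log2(FPKM + 1), with the embryo number above each point; dark colours are Obox-- and light colours Obox+- embryos, each early and late. Gm6763 and Gm21304 are low in late Obox-- embryo 1 and in late Obox+- embryos 1 and 3, and Xist and Eif2s3y are found in different late embryos.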

How the data were processed

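RNA of single embryos was sequenced after Smart-seq2 amplification. The authors deposited FPKM per gene, made with Trim Galore 0.6.6, HISAT2 2.2.1 and StringTie 2.1.2 on build mm9, per the submitters' processing notes. Read counts are not used here and depth is unknown: the most common ratio between low values of libraries covered 0.371% to 0.787% of them, and reads were therefore not rebuilt. Rows whose gene name had turned into a date were left out and duplicate names were summed. Obox names with a cluster prefix were read as the gene they end in.

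Genes with at least 1 FPKM in at least 2 libraries were tested on log2(FPKM + 1) with limma 3.58.1 (R 4.3.3; trend and robust) over the 4 single-embryo groups, with Benjamini-Hochberg adjustment over all genes; wild-type and mzKO embryos were fitted in their own table. The method was tested on simulated data. A gene was called at an adjusted p under 0.05 and a log2 change of at least 1. With predicted, clone-named and Obox genes set aside for the largest changes, genes named are Obox1 to Obox8, the 15 largest called changes each way among genes with a mean of at least 10 FPKM in the higher group and no overlap between stages, 5 predicted genes each way, up to 3 members each way per list with a mean of 5 FPKM, up to 8 genes each way for the difference with a mean of at least 5 FPKM in a group, the sex-linked genes, Rn45s, and 8 per group for spread. Further members named (such as Bop1, Pes1, Nr5a2, Btg4, Tcl1b1, Zp2, Ezh2, Zfp352 and the Zscan4 genes) were chosen after their values were seen. The embryos and all 31 lists were chosen with earlier results of these data known. Promoters and genomic spans came from RefSeq tables (GRCm38.p6), matched by symbol for 94.1% of tested genes for spans; motif counts used Python 3.11.15. Alternatives were another pseudocount, other filters, median-of-ratios scaling, Rn45s left out, a replicate block and each embryo left out.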

Additional observations from a re-analysis of the deposited data

Results flagged for a closer look

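The gap from the highest or lowest late Obox-- embryo to the nearest other, as a share of the range over the 4 late embryos, passed Dixon's 95% limit for 9 of 189 named genes. Chance alone flags about 1 in 20 groups, or about 9 genes here, so the number of genes is no more than chance gives. Ift43 was listed at 1.22, 0, 0.0619 and 0 FPKM in late embryos 1 to 4 (share 0.949, embryo 1 high). Gmnn was at 2.92, 5.23, 2.81 and 2.93 (0.949, embryo 2 high). Mat2a was at 165, 214, 169 and 165 (0.924, embryo 2 high). Pprc1, a coactivator of mitochondrial gene expression, was at 93.7, 92.7, 118 and 94.8 (0.917, embryo 3 high). Rarg was at 30.6, 30.5, 29.6 and 40.6 (0.911, embryo 4 high). Tex101 was at 99.1, 0.374, 0.203 and 11.1 (0.89, embryo 1 high). H3f3b, which encodes histone H3.3, was at 6.71, 6.91, 11.8 and 6.14 (0.864). Odf2 was at 5.17, 11.1, 5.03 and 4.24 (0.864). Mrps14, a mitochondrial ribosomal protein, was at 0.127, 0.142, 0.366 and 1.56 (0.834). The embryo that stood apart was not the same one in each gene.

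The change from early to late differed between the genotypes, by limma's test of the difference itself, for 11 genes. The log2 change in Obox-- minus that in Obox+- embryos was -3 for OboxA8, -2.78 for OboxA5, -2.71 for OboxA10, -2.62 for Gja1, -2.6 for OboxA7, -2.34 for Sox21 and -2.31 for Add3. It was 2.69 for Cldn6, 2.92 for Gm12789, 3.08 for Gm6902 and 3.41 for Gm4567. The first 7 of these genes passed the filter on low values through 1 genotype only and had to differ in level. For the 4 Obox copies all 7 Obox-- embryos are listed at 0.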

How the results depend on the processing

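Of 186 named genes called in Obox-- embryos, 182 kept direction and call under every alternative run. The exceptions were Slc2a1 and Hist1h4d without early embryo 1, Hist1h4d also without early embryo 2, Aimp2 with Rn45s left out and Mt1 with the replicate block (1.78, adjusted p = 0.055 by limma). Depth is unknown, so low FPKM values carry an unknown counting error. The cause of the shifts below was not tested.

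With 1 embryo left out the Obox-- calls ran from 5791 to 6007 in all, 2793 to 3328 up and 2540 to 3125 down, and the Obox+- calls from 5587 to 5907, 3124 to 3428 and 2419 to 2596. Calls of the difference ran from 2 to 31, 0 to 14 up and 2 to 20 down, with at least 854 genes at an unadjusted p under 0.05. With a pseudocount of 0.1 limma called 0 differences, 0 up and 0 down, with 987 at an unadjusted p under 0.05. Median-of-ratios scaling gave 25, of which 15 were up. In wild type the calls ran from 3488 to 6337, 2485 to 6175 up and 162 to 1003 down, and in mzKO from 992 to 2676, 756 to 2481 and 62 to 236. Median-of-ratios scaling gave 2015 up and 1732 down in wild type and 947 and 946 in mzKO.

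Same-numbered early and late embryos did not deviate together (r of -0.05, -0.02 and 0.08 for numbers 1 to 3), so the numbers were not taken to pair them. The replicate block gave 3142 up and 2850 down in Obox-- embryos and 10 differences, of which 2 were up.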
